A study of Mus musculus with 6 samples.

Results

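The proteasome subunit genes were examined in the anterior prostate (AP) of mice with forced Notch1 activity. They were taken from the gene tables by symbol alone, as all genes named Psma, Psmb, Psmc, Psmd or Psme followed by a number, leaving out Psmb8, Psmb9 and Psmb10, the catalytic subunits of the immunoproteasome. This gave 40 genes of the 54532 named rows, with 16 genes of the core particle (Psma and Psmb) and 24 genes of the regulatory particles (Psmc, Psmd and Psme). RNA was sequenced from the AP of 20-week-old male mice, with 3 OEx and 3 Ctrl libraries. Neither the labels nor the study's methods say whether each library came from a mouse of its own, so the p-values measure the spread between these samples, which may be technical. OEx mice (Pbsn-Cre Rosa26 N1ICD/+) carried the Notch1 intracellular domain (N1ICD) at the Rosa26 locus and a Cre driven by the Pbsn promoter, which is active in the prostatic epithelium. Ctrl mice carried the same Rosa26 N1ICD/+ allele without Cre, and their labels call them wild type. The libraries were made from the whole gland, so stroma, vessels and blood cells were measured together with the epithelium in which the transgene is driven.

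The proteasome is the machine by which cells degrade most of their short-lived and damaged proteins. Its core particle is a barrel of stacked rings, with alpha subunits in the outer rings that form the gate and beta subunits in the inner rings, some of which cut the protein. The regulatory particle caps the barrel. Its base holds a ring of ATPases that unfold the substrate, and its lid removes the ubiquitin chain by which the substrate was marked. The Psme proteins are other caps that open the gate without ubiquitin. A secretory gland such as the prostate makes large amounts of protein, and the transcription factor Nfe2l1 induces many subunit genes together when proteasome activity falls short.

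Levels are given in FPKM, a measure of fragments per kilobase of exon, so they are corrected for the exon length of a gene. Differences are log2 fold changes of OEx against Ctrl on the log2(FPKM + 1) scale with their standard error (SE). FDR is the Benjamini-Hochberg adjusted p of limma over the 12553 genes whose mean FPKM was 1 or more. Genes were called lower or higher when their FDR was under 0.05 and their fold change exceeded 2, and the weaker statement "lower at FDR under 0.05" has no fold criterion. The smallest p of an exact two-sided permutation test with 3 samples per group is 0.1, and each gene whose groups did not overlap has this value.

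The reads recovered from the FPKM values numbered 14772005 to 17009325 in OEx and 17236735 to 18655462 in Ctrl samples. Notch1 itself measured 41.9, 47.6 and 78.9 FPKM in OEx 1, 2 and 3 and 5.18, 5.55 and 3.34 FPKM in Ctrl 1, 2 and 3. Replicate 3 stood apart in both groups. The chi-square per degree of freedom between the reads of replicates 1 and 2, over 12305 genes in OEx and 12045 in Ctrl, was 4.31 in OEx and 3.08 in Ctrl, against 62.3 to 103 for the pairs with replicate 3. Replicates 1 and 2 differed by more than counting error, for which this ratio is 1, and were kept as separate samples. In addition, 8 seminal vesicle genes summed to 16100 FPKM in Ctrl 3 and to between 0.578 and 4.36 FPKM in the other 5 samples. The counts over all subunit genes, the core genes and the regulatory genes are therefore also given with replicates 1 and 2 averaged into 1 sample per group, and without Ctrl 3. The tissue markers differed between the groups. The 8 luminal markers summed to 3400 to 6850 FPKM in OEx and 25800 to 25900 FPKM in Ctrl samples, with 7 lower at FDR under 0.05, but 5 lower and 2 higher with library totals. Most of the Ctrl sum came from the secretory genes Pbsn (a difference of −2.60) and Tgm4 (−5.44), whereas the keratin Krt8 differed by −0.43 (0.35 with library totals) and Epcam by 0.45 (FDR 0.116). All 4 basal markers were called lower, with sums of 6.79 to 15.9 FPKM in OEx and 212 to 249 FPKM in Ctrl samples, and so were all 6 smooth muscle markers, with sums of 419 to 505 against 1250 to 2670 FPKM. The 4 endothelial markers summed to 5.68 to 6.68 against 16.7 to 21.1 FPKM. The sums of the 6 fibroblast markers overlapped between the groups (25.1 to 252 against 53.1 to 94.7 FPKM). So did those of the 7 immune markers (8.25 to 34.1 against 8.40 to 15.9 FPKM). Of the single immune markers, Ptprc alone did not overlap, and its mean FPKM under 1 left it untested. Its level was 1.85, 1.55 and 0.427 FPKM in OEx and 0.0742, 0.114 and 0.201 FPKM in Ctrl samples. The part of these differences in the results for the proteasome was not tested, and in whole tissue fewer cells of a type and less RNA per cell cannot be told apart.

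With the deposited scaling most proteasome subunit genes were lower in OEx samples, which was not so with library totals, and the median of the core genes lay below that of the regulatory genes. Of 38 tested genes, 28 were lower at FDR under 0.05, beside 36.5% of all genes tested, and 3 were higher, beside 30.9%. Of these, 11 were called lower, beside a background of 15.5%, and 1 was called higher, beside 12.8%. The remaining 7 passed in neither direction, namely Psma1, Psma3, Psmd6, Psmd11, Psmd12, Psmd14 and Psme1. The difference was below 0 for 33 genes, beside 53% of all genes tested. All OEx samples lay below all Ctrl samples for 29 genes, beside 38.9% of all genes, and above them for 4, beside 33.6%. The median difference was −0.70, that is −0.63 relative to the median of all genes of −0.074, and single genes ran from −1.62 for Psmb5 to 1.11 for Psmc6. The summed level of the 38 genes was 1130, 1100 and 1110 FPKM in OEx 1, 2 and 3 and 2010, 1970 and 2070 FPKM in Ctrl 1, 2 and 3. Without Ctrl 3, 11 genes were still called lower and 27 were lower at FDR under 0.05. With replicates 1 and 2 averaged, an alternative chosen after the data were seen, these counts were 11 and 25.

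How far below 0 these differences lay depended on how the libraries were scaled. In Ctrl samples a single gene held 14.2 to 22% of the reads and in OEx samples 1.04 to 1.12%, and the denominators behind the deposited values were 0.726 to 0.815 times the recovered reads in Ctrl and 1.22 to 1.34 times in OEx samples. When the values were put back on the total reads of each library, the median of all genes moved up by 0.637, to 0.562, and the median of the subunit genes became 0.06, which is −0.50 relative to the median of all genes. Under this scaling 18 of the 33 genes below 0 lay above it, none was called lower, 10 were lower at FDR under 0.05 beside 13.8% of all genes, and 12 were higher beside 57.4%. The 11 genes called lower with the deposited scaling all stayed below 0 with library totals, and 10 of them at FDR under 0.05. The exception was Psmc3, at −0.29 with an FDR of 0.0591. The gap between core and regulatory genes was nearly unaffected, since such a scaling moves all genes of a sample together.

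**Figure D1:**
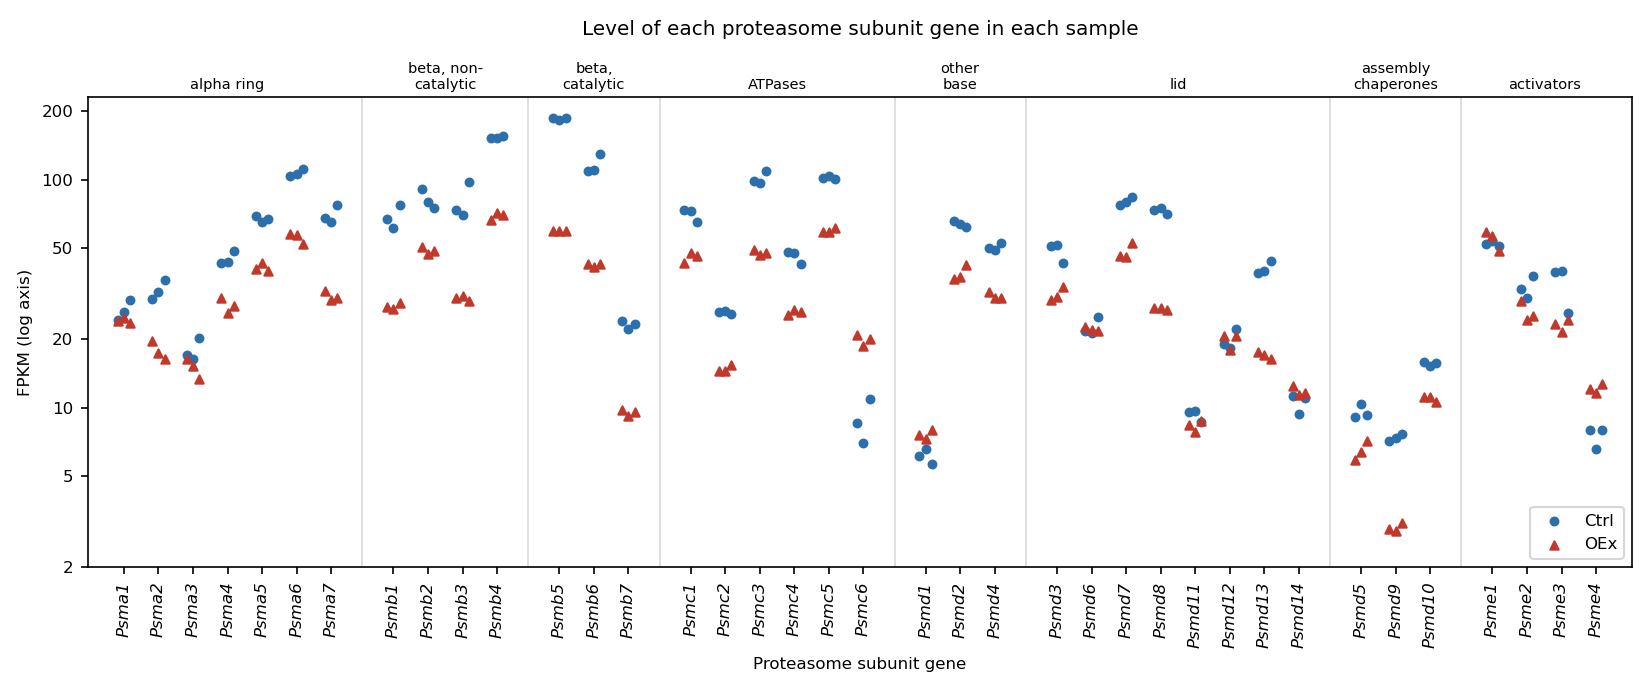
Level of each tested subunit gene in each sample, in FPKM on a log axis, ordered by the role of the gene, with blue circles for the 3 Ctrl samples and red triangles for the 3 OEx samples. In Ctrl samples Psmb5 is the highest at 182 to 187 FPKM, and in OEx samples it falls to 59.5 to 59.6 FPKM, below Psmb4. Psmc6, Psmd1, Psmd14 and Psme4 are the genes whose OEx samples all lie above the Ctrl samples with the deposited scaling.

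With the deposited scaling the genes of the inner rings had the lowest median of the structural groups. The beta genes expressed outside the thymus, Psmb1 to Psmb7, had a median of −1.27. All 7 were lower at FDR under 0.05 (36.5% of all genes), and 6 of 7 were called lower (15.5% of all genes). The alpha genes had a median of −0.69, with 5 of 7 lower at FDR under 0.05 and 1 called lower. Over all 14 tested core genes the median was −1.04 (−0.96 relative to all genes). Of the 14, 12 were lower at FDR under 0.05 (36.5% of all genes) and 7 were called lower (15.5%). None was higher at FDR under 0.05 (30.9% of all genes). The count of core genes lower at FDR under 0.05 was also 12 without Ctrl 3 and with replicates 1 and 2 averaged. With library totals the core median was −0.26 and 7 of the 14 were lower at FDR under 0.05 (13.8% of all genes), 6 of them beta genes. After a correction for GC content and exon length the median was −0.85 for Psmb1 to Psmb7 and −0.66 for the alpha genes. It was then −0.92 for the 3 chaperones of the base. At FDR under 0.05, 6 of the 7 beta and 7 of the 7 alpha genes were lower after this correction (31.1% of all genes).

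The 3 beta subunits that carry the active sites were each called lower (15.5% of all genes). Psmb5 (ENSMUSG00000022193.7, chr14:54614119-54618022 in GRCm38, minus strand) supplies the chymotrypsin-like activity. It measured 59.6, 59.6 and 59.5 FPKM in OEx 1, 2 and 3 and 187, 182 and 187 FPKM in Ctrl 1, 2 and 3. The means were 59.5 ± 0.0621 and 185 ± 2.6 FPKM (SD, n = 3), a 3.11-fold lower level in OEx samples (log2 fold change −1.62, SE 0.0706, FDR 2.3e-05). With the deposited scaling this gap was the largest among the subunit genes and was wide against the spread within either group. It was −0.85 (FDR 0.000233) with library totals, and −0.83 (FDR 0.000183) after a correction for GC content and exon length. Psmb6 (ENSMUSG00000018286.6, chr11:70525367-70527858, plus strand), which supplies the caspase-like activity, measured 42.7, 41.6 and 42.5 FPKM in OEx and 109, 110 and 129 FPKM in Ctrl samples (−1.43, SE 0.0930, FDR 4.92e-05). Psmb7 (ENSMUSG00000026750.6, chr2:38588036-38644087, minus strand), which supplies the trypsin-like activity, measured 9.80, 9.24 and 9.62 FPKM in OEx and 23.9, 22.1 and 23.2 FPKM in Ctrl samples (−1.19, SE 0.0756, FDR 4.63e-05). No OEx sample reached the level of any Ctrl sample for these 3 genes. Psmb7 had the lowest level of the beta genes in every sample, on an exon length summed over all its isoforms, which lowers the FPKM of a gene with long alternative exons.

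The bases just before the start of Psmb5 and Psmb6 are shown because these are the genes with the largest differences and because both windows held the core of the antioxidant response element, TGACNNNGC, the motif bound by Nfe2l1 and Nfe2l2. The 120 bases before the start of each gene were taken from RefSeq (GRCm38.p6), at chr14:54617996-54618115 on the minus strand for Psmb5 and chr11:70525237-70525356 on the plus strand for Psmb6, with the motif in capitals. The RefSeq start, from which positions are counted here, lies inside the GENCODE span of Psmb5 given above and just before that of Psmb6.
Psmb5: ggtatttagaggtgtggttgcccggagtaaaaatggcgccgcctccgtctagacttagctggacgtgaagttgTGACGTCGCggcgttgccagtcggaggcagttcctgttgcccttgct
Psmb6: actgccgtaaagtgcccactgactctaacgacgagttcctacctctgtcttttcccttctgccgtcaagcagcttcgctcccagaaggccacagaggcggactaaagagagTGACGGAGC
The match began at position −47 in Psmb5 and at −9 in Psmb6, counted back from the start. A match of letters is a description and does not show that a factor binds there.

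Among the beta subunits without an active site, Psmb1, Psmb3 and Psmb4 were called lower and Psmb2 was not. Psmb3 measured 30.2, 31.0 and 29.4 FPKM in OEx and 73.7, 69.7 and 97.7 FPKM in Ctrl samples (−1.37, SE 0.136, FDR 0.000201). Psmb1 measured 27.7, 27.1 and 28.8 against 67.0, 61.7 and 77.2 FPKM (−1.27, SE 0.101, FDR 9.37e-05). For both genes Ctrl 3 was the highest sample, and the OEx samples lay within a narrow band. Psmb4 measured 66.6, 71.1 and 70.0 against 153, 152 and 156 FPKM (−1.14, SE 0.0739, FDR 4.88e-05), and it was the most abundant subunit transcript of the OEx samples. Psmb2 measured 50.5, 47.0 and 48.7 against 91.4, 79.5 and 74.9 FPKM (−0.73, SE 0.0978, FDR 0.000694), but with library totals its difference was 0.04 (FDR 0.718). With the deposited scaling it was the beta gene with the smallest difference.

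The alpha ring was less even. Psma7 was the alpha gene called lower, at 32.6, 29.8 and 30.4 FPKM in OEx and 67.8, 65.1 and 77.1 FPKM in Ctrl samples (−1.15, SE 0.0934, FDR 9.82e-05). Psma6 had a difference of −0.93 (FDR 0.000118), Psma2 of −0.85 (FDR 0.000542), Psma5 of −0.69 (FDR 0.000309) and Psma4 of −0.67 (FDR 0.000861), so that these 4 were lower by less than 2-fold, although with library totals none of the 4 passed, at −0.16, −0.10, 0.08 and 0.09. Psma1 and Psma3 did not pass the test with the deposited scaling, and other treatments of the values gave opposite results for them. With library totals both were higher (0.62, FDR 0.00501, and 0.50, FDR 0.028), beside 57.4% of all genes and a median of all genes of 0.562. After a correction for GC content and exon length both were lower (−0.32, FDR 0.017, and −0.83, FDR 0.000926). All 7 alpha genes were then lower at FDR under 0.05, beside 31.1% of all genes. Psma1 measured 24.1, 24.7 and 23.6 FPKM in OEx and 24.3, 26.3 and 29.6 FPKM in Ctrl samples, and the groups overlapped (−0.14, SE 0.0934, FDR 0.231). For Psma3 all OEx samples lay below all Ctrl samples, at 16.3, 15.2 and 13.4 against 17.0, 16.4 and 20.2 FPKM (−0.24, SE 0.115, FDR 0.106). With the deposited scaling the alpha genes in OEx samples thus ranged from a level near that of Ctrl samples to less than 50% of it.

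The tissue-restricted core subunits were not detected at a usable level and were not tested. Psma8, an alpha subunit of the germ cells, had 4, 1 and 0 reads in OEx and 0, 0 and 4 reads in Ctrl samples. Psmb11, the catalytic subunit of the thymus, had 0 reads in all 6 samples, where 3 reads would correspond to 0.0274 to 0.0501 FPKM. These limits cover counting error only. All other subunit genes had at least 282 reads in every sample.

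**Figure D2:**
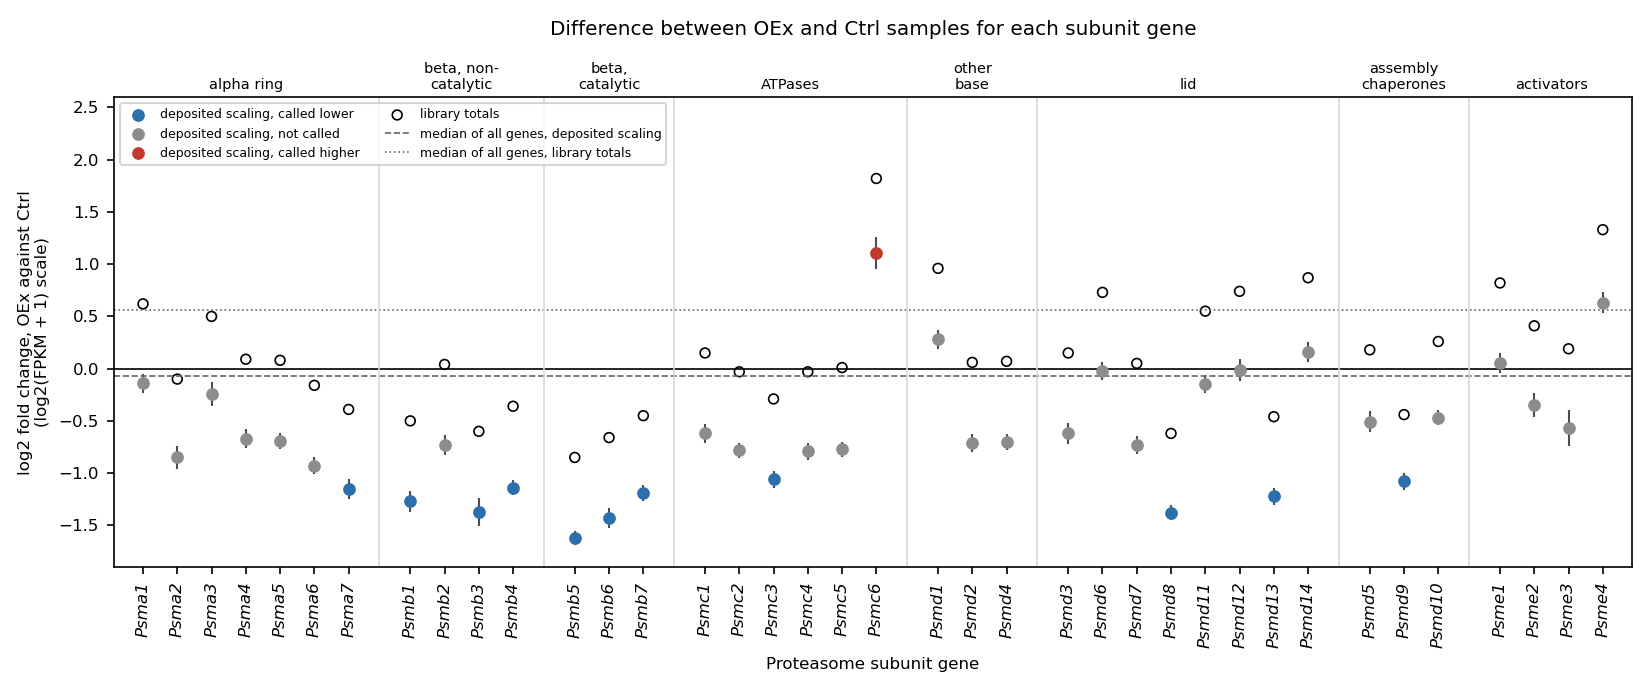
Log2 fold change of OEx against Ctrl samples on the log2(FPKM + 1) scale for each tested subunit gene. Filled points show the deposited scaling with bars of 1 SE, in blue for the 11 genes called lower, red for Psmc6, called higher, and grey for the others. Open points show library totals, where 18 genes pass from below to above 0. The dashed and dotted lines are the medians of all genes at −0.074 and 0.562. The beta genes have the lowest median, but Psmb2 lies above Psmd8, Psmd13, Psma7, Psmd9 and Psmc3. Psmc6, Psme4 and Psmd1 stand furthest above the line of their scaling.

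The regulatory genes differed more among themselves than the core genes with the deposited scaling. Of 24 genes, 16 were lower at FDR under 0.05 (36.5% of all genes) and 4 were called lower (15.5%). In the other direction 3 were higher at FDR under 0.05 (30.9%) and 1 was called higher (12.8%). Their median was −0.59 (−0.52 relative to all genes) with the deposited scaling and 0.17 (−0.39 relative to all genes) with library totals. The SD of the differences with the deposited scaling was 0.59 over the regulatory genes and 0.43 over the core genes. After a correction for GC content and exon length these SDs were closer, at 0.51 and 0.46. With replicates 1 and 2 averaged, 13 regulatory genes were lower at FDR under 0.05 and their median was −0.51, and without Ctrl 3 these were 15 and −0.67.

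In the ATPase ring, 5 of 6 genes moved together and the other moved the opposite way with the deposited scaling. Psmc1 to Psmc5 lay between −1.06 and −0.62, each with an FDR of at most 0.000949. With library totals, however, these 5 lay between −0.29 and 0.15 and none passed the test. After a correction for GC content and exon length they spread from −1.41 for Psmc2 to −0.12 for Psmc5. Of the 5, 3 were then lower at FDR under 0.05 (31.1% of all genes). Psmc3 was the gene of this ring called lower with the deposited scaling (−1.06, SE 0.0830, FDR 8.64e-05). It measured 49.4, 46.8 and 47.7 FPKM in OEx and 98.5, 96.3 and 109 FPKM in Ctrl samples. Psmc6 (ENSMUSG00000021832.8, chr14:45329788-45349705, plus strand) was the subunit gene called higher. It measured 20.9, 18.7 and 20.1 FPKM in OEx and 8.57, 6.98 and 10.9 FPKM in Ctrl samples, with means of 19.9 ± 1.11 and 8.82 ± 1.98 FPKM (SD, n = 3). It was 2.25-fold higher in OEx samples (1.11, SE 0.152, FDR 0.000794), and 1.82 higher on the log2 scale with library totals. The lowest OEx sample lay well above the highest Ctrl sample. Within a sample, the level of Psmc6 was 0.611, 0.537 and 0.568 of the geometric mean of the other 5 ATPase genes in OEx and 0.138, 0.113 and 0.182 in Ctrl samples, a ratio that no scaling of a library can change. Without Ctrl 2 the difference of Psmc6 was 0.97, under the fold criterion, and its call also ended after a correction for GC content and exon length, where the difference was 0.32 with an FDR of 0.0596.

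The window of Psmc6 also held the antioxidant response element core, at position −227 and on the opposite strand, and is shown for comparison with the pair above, counted from a RefSeq start inside the GENCODE span. These 120 bases begin 250 bases before the start, at chr14:45329574-45329693 on the plus strand (RefSeq, GRCm38.p6), with the match in capitals.
Psmc6: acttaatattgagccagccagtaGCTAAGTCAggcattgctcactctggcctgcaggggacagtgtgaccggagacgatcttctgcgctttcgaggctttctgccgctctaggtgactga
The same letters were thus found before the genes with the largest difference in either direction.

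The other genes of the base code for its scaffolds and a ubiquitin receptor. Psmd2, the scaffold that binds ubiquitin shuttle proteins, had a difference of −0.71 (FDR 0.000442) and Psmd4, the ubiquitin receptor, of −0.70 (FDR 0.000287), although both lay above 0 with library totals (0.06 and 0.07). Psmd1, the other scaffold, went against them. It measured 7.62, 7.29 and 8.00 FPKM in OEx and 6.15, 6.57 and 5.66 FPKM in Ctrl samples (0.28, SE 0.0884, FDR 0.0283). Its difference was 0.96 (FDR 4.77e-05) with library totals and 0.01 (FDR 0.882) after the correction for GC content and exon length. The groups did not overlap, but the FDR rose to between 0.0589 and 0.0863 when OEx 1, OEx 2, OEx 3 or Ctrl 1 was left out, and to 0.127 with replicates 1 and 2 averaged. In Ctrl samples Psmd1 was the lowest of the tested subunit genes.

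In the lid, 4 of 8 genes were lower at FDR under 0.05 (36.5% of all genes) and the other 4 did not pass the test. Psmd8 measured 27.5, 27.5 and 26.9 FPKM in OEx and 73.3, 75.0 and 70.5 FPKM in Ctrl samples (−1.38, SE 0.0713, FDR 2.96e-05), a difference close to that of the beta genes. Psmd13 measured 17.6, 17.0 and 16.4 against 38.9, 39.8 and 43.8 FPKM (−1.22, SE 0.0822, FDR 5.38e-05). Both are structural subunits of the lid, and in both the OEx samples lay below 50% of the lowest Ctrl sample. Psmd7, the partner of the deubiquitinase Psmd14, had a difference of −0.73 (FDR 0.000487), and the structural subunit Psmd3 of −0.62 (FDR 0.00181), although with library totals they lay at 0.05 and 0.15. Psmd14, the enzyme that removes the ubiquitin chain, measured 12.5, 11.4 and 11.6 against 11.3, 9.37 and 11 FPKM, with all OEx samples above all Ctrl samples and no passing test (0.16, SE 0.0973, FDR 0.196). Psmd12 measured 20.6, 17.9 and 20.6 against 19.1, 18.2 and 22.1 FPKM (−0.01, SE 0.105, FDR 0.968). Psmd6 (−0.02, FDR 0.824) and Psmd11 (−0.15, FDR 0.167) overlapped between the groups as well. These 3 are structural subunits like Psmd8 and Psmd13. With library totals 57.4% of all genes were higher at FDR under 0.05, and the median of all genes was 0.562. All 4 lid genes that did not pass with the deposited scaling were then higher too, between 0.55 and 0.87. After the correction for GC content and exon length, however, Psmd11 was lower (−0.96, FDR 0.000126), and the other 3 did not pass.

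The 3 chaperones that help to assemble the base were each lower at FDR under 0.05 with the deposited scaling (36.5% of all genes). Psmd9 was called lower, at 2.94, 2.87 and 3.13 FPKM in OEx and 7.12, 7.40 and 7.66 FPKM in Ctrl samples (−1.08, SE 0.0824, FDR 8.02e-05), and it was the lowest tested subunit gene of the OEx samples. Psmd5 had a difference of −0.51 (FDR 0.00411) and Psmd10, also known as gankyrin, of −0.47 (FDR 0.00139), although with library totals both lay above 0 (0.18 and 0.26). For Psmd5 the FDR was 0.0533 with replicates 1 and 2 averaged.

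The alternative caps did not move as a group. Their median was −0.15, with 2 of 4 genes lower at FDR under 0.05 and 1 higher (36.5% and 30.9% of all genes). Psme4, the large nuclear activator PA200, measured 12.1, 11.6 and 12.7 FPKM in OEx and 8.00, 6.58 and 7.95 FPKM in Ctrl samples (0.63, SE 0.0992, FDR 0.00145), 1.62-fold higher in OEx samples. After the correction for GC content and exon length its difference was 0.07 (FDR 0.564). Psme3, the nuclear activator PA28 gamma, measured 23.2, 21.4 and 24.2 against 39.2, 39.9 and 26 FPKM (−0.57, SE 0.172, FDR 0.0238), but with library totals its difference was 0.19 (FDR 0.23). Ctrl 3 lay close to the OEx samples for this gene, and the FDR ranged from 0.0585 to 0.0795 without OEx 1, OEx 2, Ctrl 1 or Ctrl 2. Psme1 and Psme2, which form the interferon-induced cap PA28, differed from each other. Psme1 measured 58.8, 56.5 and 48.5 against 52.2, 54.1 and 51.4 FPKM (0.05, SE 0.0960, FDR 0.667), with overlapping groups. Psme2 measured 29.3, 24.3 and 25.3 against 33.2, 30.3 and 37.9 FPKM (−0.35, SE 0.116, FDR 0.0336), but the difference lay at 0.41 with library totals, and the FDR was between 0.0634 and 0.112 without OEx 2, OEx 3, Ctrl 1 or Ctrl 3. Psme2 has a close copy, Psme2b, listed at 30.9, 45.3 and 28.3 against 66.2, 78.7 and 72.3 FPKM, and reads may have been split between them.

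Ratios between subunit genes within a sample do not depend on the scaling of its library. They are given as a description, since the pairs were chosen after the values were known. No correction for GC content and exon length was made in them. After that correction the median differences were −0.66 for the alpha and −0.85 for the beta genes, against −0.69 and −1.27 without it. The geometric mean of the core genes over that of the 17 base and lid genes was 1.34, 1.33 and 1.25 in OEx and 1.81, 1.80 and 1.96 in Ctrl samples. The alpha genes over the beta genes stood at 0.823, 0.792 and 0.746 in OEx and 0.5, 0.531 and 0.533 in Ctrl samples. So the core genes came closer to the base and lid genes in OEx samples, and the beta genes closer to the alpha genes. Psmb5 over the alpha genes was 2.15 ± 0.103 in OEx and 4.16 ± 0.255 in Ctrl samples (SD, n = 3). Psmd1 over Psmd2, the scaffolds of the base, was 0.197 ± 0.00939 against 0.0959 ± 0.00618, Psmd14 over Psmd7, the partners in the lid, was 0.246 ± 0.0258 against 0.131 ± 0.0141, and Psme4 over Psme3 was 0.530 ± 0.0102 against 0.225 ± 0.0727. None of these ratios overlapped between the groups, where 72.5% of all single genes did not overlap either.

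**Figure D3:**
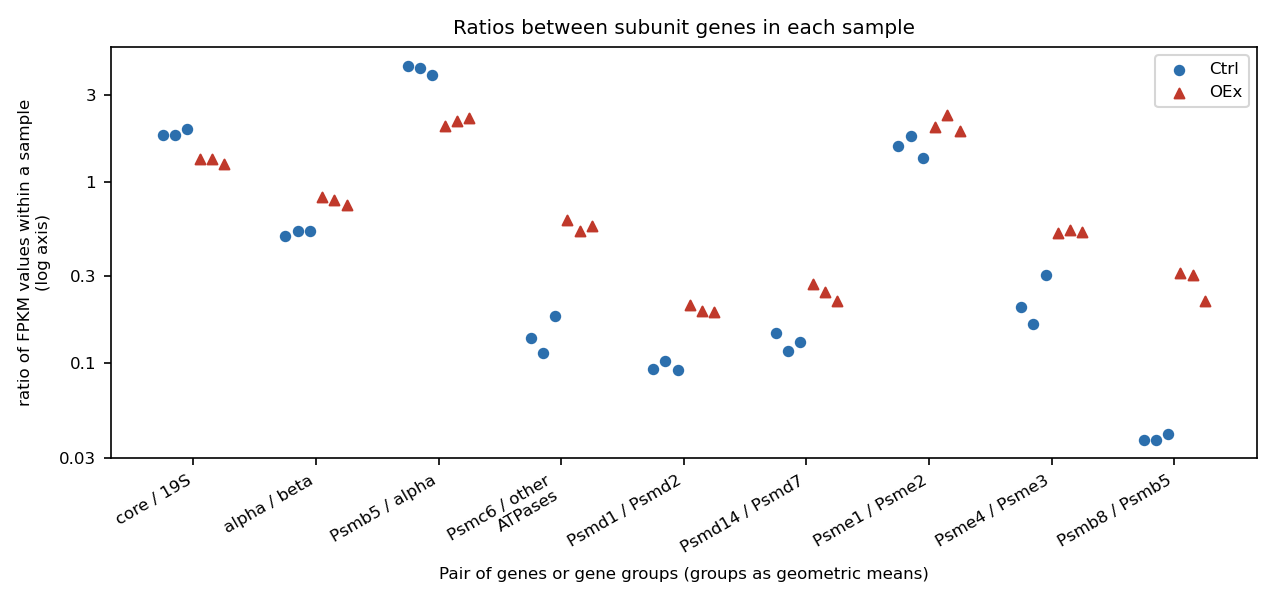
Ratio of FPKM values between subunit genes or groups of genes (as geometric means) in each sample, on a log axis, with blue circles for the 3 Ctrl and red triangles for the 3 OEx samples. The groups are apart for each ratio, by 4.05-fold for Psmc6 over the other ATPase genes and 1.42-fold for the core over the base and lid (19S) genes. Psmb8 is an immunoproteasome gene and is no member of the set.

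The levels of the subunit genes also lay closer together in OEx samples. The SD of their log2 FPKM values over the 38 genes was 1.02 to 1.05 in OEx and 1.34 to 1.35 in Ctrl samples, and without Psmc6 it was 1.03 to 1.06 against 1.31 to 1.32. The highest gene over the lowest was 22.4- to 24.8-fold in OEx and 27.7- to 33.0-fold in Ctrl samples. In the ATPase ring, the highest over the lowest was 3.98- to 4.09-fold in OEx and 10- to 14.9-fold in Ctrl samples. The lowest gene of this ring was Psmc2 in OEx and Psmc6 in Ctrl samples, so this contrast rests on Psmc6. In Ctrl 1, 2 and 3 the next lowest, Psmc2, was at 26.2, 26.5 and 25.7 FPKM, and the highest gene at 102, 104 and 109 FPKM. In OEx 1, 2 and 3 Psmc2 was at 14.5, 14.5 and 15.4 FPKM, and the highest gene at 59, 59.1 and 61.5 FPKM. All genes had the same pattern, with an SD of 1.82 to 1.9 against 2.18 to 2.23 over 12219 genes, so a narrower spread was not particular to the proteasome.

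The differences varied with the base composition and the level of the genes. Over the 38 genes, the log2 fold change had a Pearson correlation of −0.51 with the GC content of the longest transcript, 0.33 with the log2 exon length and −0.57 with the log2 mean FPKM. Over 12463 genes tested the same correlations were −0.33, 0.13 and −0.34. These are correlations across genes measured in the same 6 libraries, and genes are not replicates. The genes called lower had a median GC content of 52.2%, and the other tested subunit genes of 47.1%. Psmc6 had the lowest GC content of the tested subunit genes, 37.0%, in a range where genes as a whole were higher in OEx samples. After removing the trend with GC content and exon length from every sample, the median of the subunit genes was −0.46, with −0.75 for the core and −0.24 for the regulatory genes. After this correction 25 genes were lower at FDR under 0.05, beside 31.1% of all genes, and 5 were called lower. The 11 genes called lower without the correction were all still lower at FDR under 0.05. Psmb7, with a GC content of 40.8%, then had the largest difference at −1.71, while Psmb2 (−0.13, FDR 0.308), Psmc1 (−0.18, FDR 0.119), Psmc5 (−0.12, FDR 0.199), Psmd4 (−0.20, FDR 0.053) and Psme3 (−0.26, FDR 0.189) no longer passed. Psme1 (0.73, FDR 0.000460) and Psme2 (0.30, FDR 0.0444) were then higher in OEx samples. The part of GC content in the deposited differences was not tested beyond this correction.

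**Figure D4:**
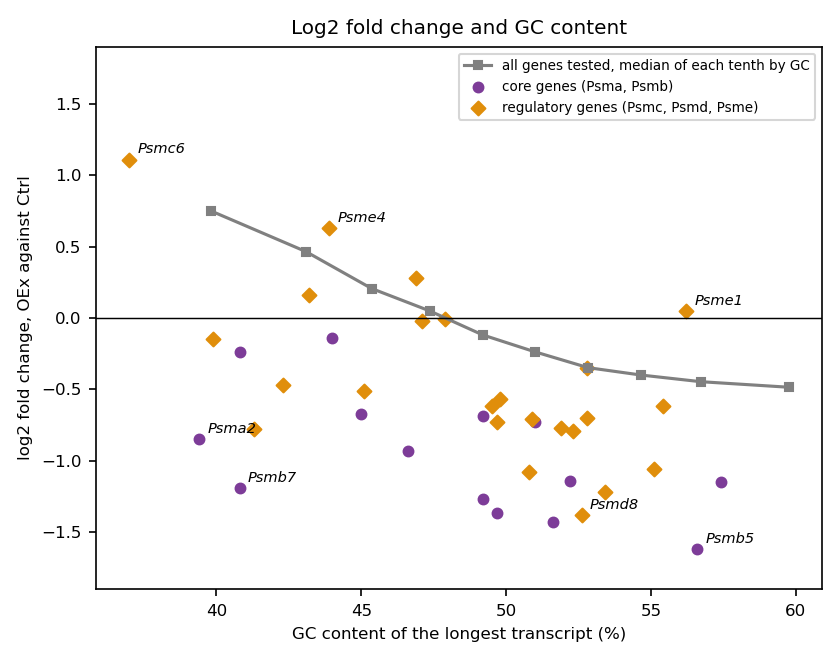
Log2 fold change of OEx against Ctrl samples (deposited scaling) against the GC content of the longest transcript in percent, with purple circles for the 14 core and orange diamonds for the 24 regulatory genes. The grey line joins the medians of all genes tested in 10 equal groups by GC content, from 0.7495 in the lowest to −0.4852 in the highest group. Psmc6 lies at 37.0% GC and 1.11, outside the range of the line, whose first point is at 39.83% GC. Most core genes lie below the line.

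The promoters of the members are described by the motifs they hold. Windows from 250 bases before to 50 bases after the start were found in RefSeq for 33 of the 40 genes, and motifs were searched on both strands. The antioxidant response element core TGACNNNGC was in 6 of 33 windows (18.2%), against 12.5% of 27025 windows of all genes and 15% of those of tested genes. Besides Psmb5, Psmb6 and Psmc6 these were Psmd9, Psmd12 and Psme4, so the motif was in 3 of 8 windows of genes called lower and in 3 of 25 windows of the other genes, the only gene called higher among them. CCAAT, the motif of NF-Y, was in 13 of 33 windows (39.4%), against 37.9% of all. The motif of nuclear respiratory factor 1 was in 1 window, that of Psma2, and in 0.977% of all. TGGGAA, the core bound by the Notch partner Rbpj, was in 7 of 33 windows (21.2%), against 25.5% of all, and these were 0 of 8 windows of genes called lower and 7 of 25 windows of the other genes. On the opposite strand CCAAT reads ATTGG, which can share 3 bases with TGGGAA. The absence of a match says only that these letters are not in the window.

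Other genes of the pathway were read from lists. Of 14 other subunits and bound cofactors, 7 were lower and 4 higher at FDR under 0.05 (36.5% and 30.9% of all genes), but 1 lower and 7 higher with library totals (13.8% and 57.4% of all genes). Sem1, a small lid subunit, was called lower at 14.2, 15.5 and 14.3 against 32.2, 34.7 and 47.2 FPKM (−1.30, FDR 0.000361). Zfand5, which stimulates the proteasome, was called higher at 12.3, 11.4 and 11.8 against 5.38, 5.16 and 5.10 FPKM (1.05, FDR 7.1e-05), and the proteasome deubiquitinases Usp14 (0.60, FDR 0.00116) and Uchl5 (0.36, FDR 0.0101) and the scaffold Ecpas (0.86, FDR 0.000309) were higher as well. After the correction for GC content and exon length none of these 4 was higher at FDR under 0.05, with Zfand5 at 0.05 (FDR 0.607), Ecpas at 0.21 (FDR 0.0645), Uchl5 at −0.21 (FDR 0.0817) and Usp14 at −0.35 (FDR 0.0277). All 5 assembly chaperones tested (Pomp and Psmg1 to Psmg4) were lower at FDR under 0.05 (36.5% of all genes), with a median of −0.66. With library totals that median was 0.07, and 1 was lower (13.8% of all genes). Pomp, the chaperone on which the beta ring is built, had a difference of −0.90 (FDR 0.000660) and Psmg3 of −0.95 (FDR 0.000154). With library totals these were −0.16 (FDR 0.417) and −0.35 (FDR 0.0224).

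Of the 9 genes that act in the transcription of proteasome genes, 3 were lower and 2 higher at FDR under 0.05 (36.5% and 30.9% of all genes), with a median of −0.01, but 0 lower and 8 higher with library totals (13.8% and 57.4% of all genes). Nfe2l1 measured 61.1, 63.6 and 66.5 FPKM in OEx and 97.3, 101 and 82.6 FPKM in Ctrl samples (−0.54, FDR 0.00308, but 0.23 with library totals). Ddi2, the protease that cleaves and activates the Nfe2l1 protein, was called higher at 23.1, 23.4 and 25.6 against 10.3, 11 and 9.02 FPKM (1.18, FDR 0.000106). The ATPase Vcp, which extracts Nfe2l1 from the membrane, had a difference of −1.0 (FDR 0.00117). The factor Nfe2l2, related to Nfe2l1, had one of 0.20 (FDR 0.132). With library totals Vcp lay at −0.22 (FDR 0.0991) and Nfe2l2 at 0.91 (FDR 0.000957). Of 7 cofactors of Vcp, 6 were lower and 1 higher at FDR under 0.05 (36.5% and 30.9% of all genes), with a median of −0.51. With library totals 0 were lower and 3 higher (13.8% and 57.4% of all genes). The polyubiquitin gene Ubb was called lower at 380, 434 and 468 against 998, 1030 and 912 FPKM (−1.20, FDR 0.000176). Uba6, an E1 enzyme that activates ubiquitin, had a difference of 0.85 (FDR 0.000673), but of −0.20 (FDR 0.191) after the correction for GC content and exon length.

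The immunoproteasome subunits replace the constitutive active-site subunits in immune and stimulated cells. Psmb8 was called higher, at 18.7, 18.2 and 13.0 FPKM in OEx and 7.04, 6.89 and 7.58 FPKM in Ctrl samples (1.10, FDR 0.000671), Psmb9 had a difference of 0.70 (FDR 0.00886) and Psmb10 of 0.07 (FDR 0.671). The ratio of Psmb8 to Psmb5 within a sample was 0.314, 0.306 and 0.219 in OEx and 0.0377, 0.0378 and 0.0406 in Ctrl samples. The immune markers summed to 33.8, 34.1 and 8.25 FPKM in OEx and 8.56, 8.40 and 15.9 FPKM in Ctrl samples. The part of immune cells in the ratio was not tested, and the lower Psmb5 level of OEx samples enters the ratio as well.

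Beside the proteasome, the cytosolic ribosomal proteins are the other large complex of this kind. Of 80 tested ribosomal protein genes, 74 were lower at FDR under 0.05 (36.5% of all genes) and 49 were called lower (15.5%). The median of these ribosomal genes was −1.06, near that of the core genes and below that of the regulatory genes. Their median was −0.30 with library totals, where that of the core genes was −0.26.

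A limit applies to single genes of the set. In the GENCODE annotation of GRCm38, 18 of the 40 genes overlapped another annotated gene and 9 a protein-coding gene. The latter were Psma2, Psma4, Psmb7, Psmc3, Psmd1, Psmd5, Psmd9, Psmd13 and Psme1. These are overlaps of whole gene spans, introns included, of only 14 bases for Psme1, and the overlap of exons was not examined. Whether the counting used strand is not given in the sources used here. How many reads the genes of such a pair share is therefore not known.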

How the data were processed

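RNA of whole AP was sequenced in 6 libraries. The authors deposited FPKM values in a table for each library with gene symbols as rows, and the submitters' processing notes name CASAVA, HISAT2 2.0.5, StringTie 1.3.3b and featureCounts 1.5.0-p3. The genome build they used is not given in the sources used here. Of 55076 rows, the 544 without a gene name (0.632 to 1.21% of the FPKM) were left out. Whole reads were recovered from the FPKM steps and the exon lengths of GENCODE genes (GRCm38). Between 96.9 and 97.5% of values under 1000 reads came out whole within 0.05 reads.

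Groups were compared in R 4.3.3 with limma 3.58.1 on log2(FPKM + 1), group as the only term, eBayes with intensity trend, over genes whose mean FPKM was 1 or more. Genes were called at FDR under 0.05 and fold change above 2. The fit and the recovery of reads were tested on simulated data. Same-numbered samples did not deviate together (correlations −0.201, −0.192 and −0.314), so the numbers were not used as pairs. Alternatives changed the pseudocount, filter, scaling, trend and fold criterion, used limma-voom on the recovered reads, corrected GC content and exon length by lowess, added a replicate block or left out each sample. An alternative with replicates 1 and 2 averaged was added after the data were seen. All members are accounted for. Values per sample are given for members called, at the extremes of each subfamily, with active sites, under the filter or against the common direction, and list genes are named if called or with the largest changes. A few further list genes (Usp14, Uchl5, Ecpas, Nfe2l1, Nfe2l2, Uba6) and the pairs for ratios were chosen after their values were seen. The list of ubiquitin genes is not reported here in full. The members and lists were chosen with earlier results of these data known. Tables, motif searches and plots used matplotlib 3.10.9, scipy 1.17.1, pandas 2.3.3 and numpy 2.4.6 under Python 3.11.15.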

Additional observations from a re-analysis of the deposited data

How the results depend on the processing

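The counts for the subunit genes (11 called lower, 1 higher, 28 and 3 at FDR under 0.05) were the same with a pseudocount of 0.1, a filter at 0.1 FPKM, no intensity trend and limma-voom, and with no filter (27 lower at FDR under 0.05) the core median was −0.93, since Psma8 and Psmb11 then entered. Scaling mattered most. With library totals, 3836 genes were called higher and 529 lower, 0 subunit genes were called lower and 2 higher, 10 were lower (7 core, 3 regulatory) and 12 higher at FDR under 0.05, and the medians were 0.06, −0.26 for the core and 0.17 for the regulatory genes. The direction then turned for Psma1 (0.62), Psma3 (0.50), Psma4 (0.09), Psma5 (0.08), Psmb2 (0.04), Psmc1 (0.15), Psmc5 (0.01), Psmd2 (0.06), Psmd3 (0.15), Psmd4 (0.07), Psmd5 (0.18), Psmd6 (0.73), Psmd7 (0.05), Psmd10 (0.26), Psmd11 (0.55), Psmd12 (0.74), Psme2 (0.41) and Psme3 (0.19). With totals that leave out the 20 most abundant genes, 2647 genes were called higher and 1175 lower, 4 subunit genes were called lower and 7 were higher at FDR under 0.05, with medians of −0.36, −0.69 and −0.25, and Psma1 (0.20), Psma3 (0.09), Psmd6 (0.31), Psmd11 (0.17) and Psmd12 (0.33) turned. With the upper quartile, 1233 genes were called lower, 4 subunit genes were called lower and 5 were higher at FDR under 0.05, with medians of −0.42, −0.75 and −0.31, and Psma1 (0.14), Psma3 (0.03), Psmd6 (0.25), Psmd11 (0.11) and Psmd12 (0.27) turned. The GC content and exon length correction gave 1194 genes called lower, 5 subunit genes called lower and 0 higher, medians of −0.46, −0.75 and −0.24, and turned Psmd6 (0.08), Psmd12 (0.20), Psmd14 (−0.07) and Psme2 (0.30). Together with the replicate block it gave 1174, 5 and 0, with 1 subunit gene higher and 10 regulatory genes lower at FDR under 0.05.

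The replicate block alone gave 1565 genes called higher and 1906 lower, and 11 subunit genes called lower and 1 higher, with 26 lower and 2 higher at FDR under 0.05. It changed no other subunit result than the FDR of Psmd1 (0.0923), Psme2 (0.0637) and Psme3 (0.0572), and the same-numbered samples are not known to be pairs. With a fold criterion of 1.5, 2923 genes were called higher and 3532 lower, and 24 subunit genes lower and 2 higher. Leaving out each sample in turn gave 11 subunit genes called lower each time, 0 to 1 called higher (0 without Ctrl 2), and a regulatory median of −0.67 to −0.53. Psme1 ranged from −0.01 (without OEx 1, where it turned) to 0.13, Psmd12 from −0.06 to 0.07 (turned without Ctrl 3, and at 0.06 without OEx 2) and Psmd6 from −0.06 to 0.04 (turned without Ctrl 3). With replicates 1 and 2 averaged the regulatory median was −0.51. Where a value changed, the cause was not tested. The number of samples and the close replicates 1 and 2 limit the precision.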
